A study of Arabidopsis thaliana with 12 samples.

Results

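Glutathione S-transferases join the tripeptide glutathione to reactive, electrophilic compounds, or use glutathione to reduce them, and so take part in detoxification, redox balance and the transport of small molecules. In plants the tau (GSTU) and phi (GSTF) classes are the largest, and some of their members are known to be induced by salicylic acid, by pathogens and by herbicide safeners through TGA transcription factors. Lambda members (GSTL) act as glutathione-dependent reductases rather than as conjugating enzymes. The genes described here are those measured by an ATH1 probe set whose single annotated symbol is that of a GST and whose mean log2 signal over all arrays lay above the dimmest 30% of probe sets. Of 14 probe sets with such a symbol, 8 passed: the tau genes GSTU16 (AT1G59700), GSTU18 (AT1G10360), GSTU20 (AT1G78370), GSTU23 (AT1G78320), GSTU26 (AT1G17190) and GSTU27 (AT3G43800), the phi gene GSTF4 (AT1G02950) and the lambda gene GSTL3 (AT5G02790). They are 8 of 22746 probe sets on the array that are not controls, of which 15923 passed the filter and were tested.

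The 12 arrays measured RNA from the aerial parts of Arabidopsis thaliana plants that were 2 weeks old and had been grown at 23 C, 70% humidity and 16 h of light. Each of 6 genotypes had 2 arrays. WT was Col-0. The cpr5 mutant forms lesions and expresses defence genes without a pathogen, and npr1 is impaired in NPR1, through which salicylic acid activates defence genes. The double mutant cpr5npr1 is given as completely resistant to P. parasitica, an oomycete that causes downy mildew. The double mutant cpr5scv1 carries a suppressor that, per the labels, returns plants to wild-type susceptibility to P. parasitica, with slightly enhanced susceptibility to P. syringae and with resistance to B. cinerea. The group cpr5npr1svi1 is given only as a triple mutant. The labels name no alleles, and they do not say whether the arrays of a genotype stand for separate plant batches. The p-values therefore reflect only how far these arrays lie apart, and that spread may be technical. CPR5 and NPR1 were not analysed here by name, and the genotypes were therefore not checked against the mutated genes.

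The deposited values are MAS5 signal, a linear measure of brightness that had been scaled to the same trimmed mean in each array. The median signal of an array ranged from 36.8 to 43.5. Of 13 leaf markers 2 had a named probe set, LHCB4.1, a chlorophyll-binding antenna protein, and RCA, Rubisco activase, and their signals ranged from 3798 to 5805 and from 3779 to 7166. Of 7 root markers 2 had one, PYK10, a beta-glucosidase of the root, and EXPA7, an expansin of root hairs. PYK10 ranged from 165 to 836, was above background in 12 of 12 arrays and was 165 and 773 in the WT arrays. EXPA7 was above background in 6 of 12 arrays. None of the 3 flower or 3 seed markers had a named probe set. In whole aerial parts, fewer cells of a type and less RNA per cell cannot be told apart.

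GSTU18 was the member with calls in the fit without a replicate block. It was lower in both groups that combined cpr5 with npr1 than in WT, by a factor of about 1.78 in cpr5npr1 and 1.68 in cpr5npr1svi1. GSTU20 was lower than in WT in cpr5, cpr5npr1 and cpr5scv1 within each replicate, and these differences passed the test once the replicate number was a term in the model. That arrays of the same number belong together was read from the arrays, not from the labels. With this block 17.4%, 16.2% and 34.0% of all probe sets were called in these genotypes, in the same order. No member was called higher in any comparison in either fit. Without the block, 6.56% of all probe sets were called higher than WT in cpr5 and 6.09% in cpr5npr1. In cpr5scv1 and cpr5npr1svi1 these shares were 12.8% and 7.88%. GSTL3, of the lambda class, had the narrowest range of genotype means.

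**Figure D1:**
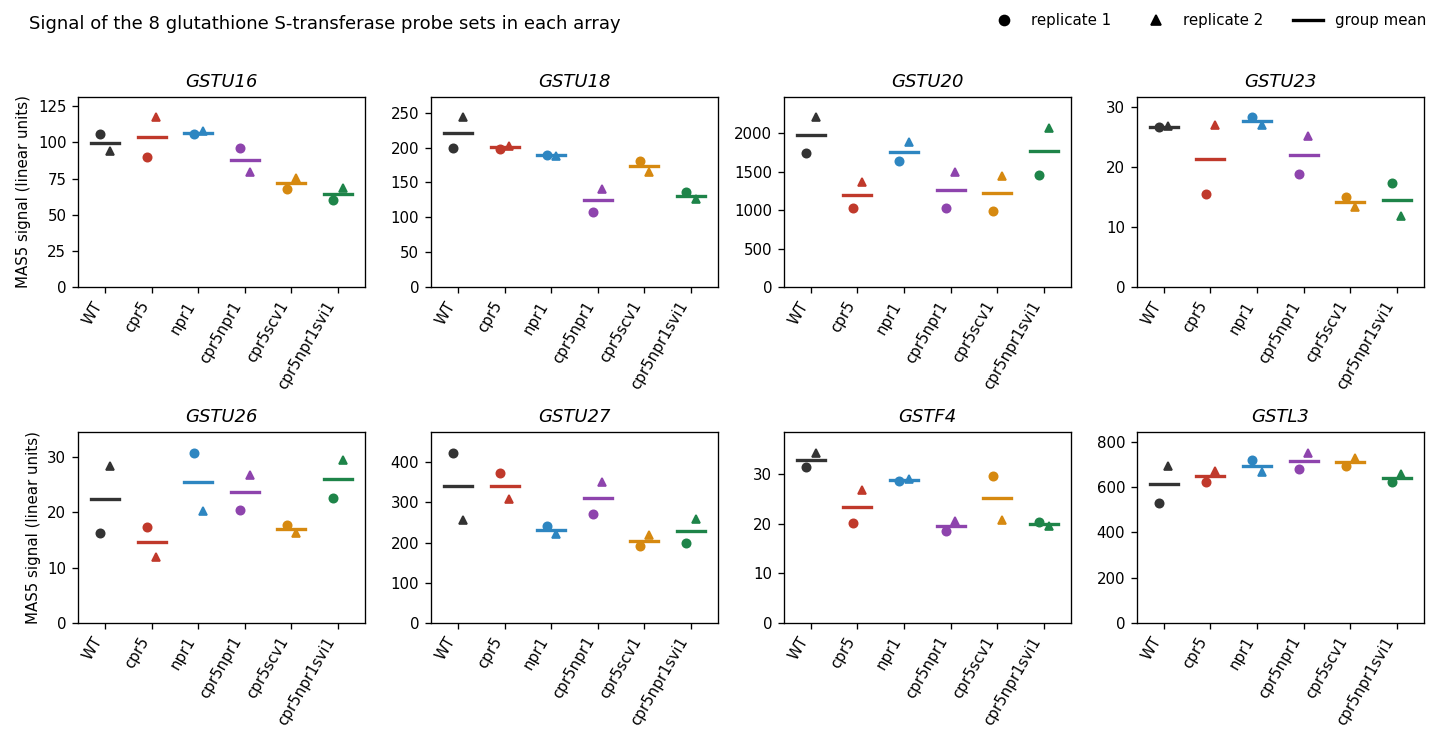
MAS5 signal (vertical axis, linear units from 0) of each of the 8 GST probe sets in the 12 arrays, by genotype, with a circle for replicate 1, a triangle for replicate 2 and a bar for the mean of the 2 arrays. GSTU18 is lowest in the 4 arrays of cpr5npr1 and cpr5npr1svi1, GSTU16 in the 4 arrays of cpr5scv1 and cpr5npr1svi1, and the triangle of GSTU20 lies above its circle in all 6 genotypes.

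The signal of GSTU18, a tau-class transferase, was 199 and 244 in WT and 198 and 203 in cpr5. It was 189 and 188 in npr1, and 181 and 165 in cpr5scv1. In cpr5npr1 it was 108 and 141, and in cpr5npr1svi1 136 and 126. The 4 arrays that carry both cpr5 and npr1 were thus the lowest of 12, and none of them overlapped an array of another genotype. Both arrays lay below both WT arrays for 20.2% of all probe sets in cpr5npr1 and for 21.2% in cpr5npr1svi1. The share of all probe sets with these 4 arrays lowest was not computed. The mean signal was 221 ± 31.6 (SD, n = 2) in WT, 125 ± 23.2 in cpr5npr1 and 131 ± 6.88 in cpr5npr1svi1.

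GSTU18 fell in cpr5npr1 against WT by 0.83 on the log2 scale, with a standard error of 0.17 and a limma adjusted p of 0.015. Within replicate 1 the log2 difference was -0.88 and within replicate 2 it was -0.79. It was the only one of the 8 members called in that comparison, where 8.14% of all probe sets tested were called in either direction and 2.05% were called lower. Without the second WT array the adjusted p in limma was 0.0638, without the first cpr5npr1 array it was 0.145, and in a fit to the arrays of these 2 genotypes alone it was 0.169, so the call was lost in each.

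In cpr5npr1svi1 the log2 difference of GSTU18 from WT was -0.75, with an adjusted p of 0.0193 in limma, and the within-replicate differences were -0.55 and -0.95. Again 1 of the 8 members was called, against 12.0% of all probe sets in either direction and 4.08% lower. The call was lost without the second WT array (adjusted p in limma 0.0835), without either cpr5npr1svi1 array (0.0621 and 0.126), and in the fit to these genotypes alone (0.117). With the replicate number as a block both calls stood, with adjusted p-values in limma of 0.00515 and 0.00652. In that blocked fit the cpr5npr1 call was lost only when the first cpr5npr1 array was left out (0.0695), and the cpr5npr1svi1 call only when the second cpr5npr1svi1 array was (0.0766).

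Neither single mutant showed a called change in GSTU18. The log2 difference from WT was -0.14 in cpr5 (95% interval -0.52 to 0.25; limma adjusted p 0.716) and -0.22 in npr1 (-0.61 to 0.17; 0.985). In the comparison of cpr5 with WT 0 of the 8 members were called, beside 8.71% of all probe sets. There 1 member had an unadjusted p below 0.05, as did 3607 of the 15923 probe sets tested. In npr1 0 members were called, beside 0.00628% of all probe sets, and 0 had an unadjusted p below 0.05, beside 899 of all 15923. The direct test of whether cpr5 and npr1 combine more than additively on the log2 scale, their interaction, gave -0.48 for GSTU18 with a 95% interval of -1.02 to 0.07 and was not called. For the interaction 0 of the 8 members were called in limma, with 0.0251% of all probe sets called. An unadjusted p below 0.05 was found for 0 members and for 507 of all 15923 probe sets.

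Between the mutants, GSTU18 was lower in cpr5npr1 than in cpr5 by 0.70 on the log2 scale (95% interval -1.09 to -0.31). This was not called, with an adjusted p of 0.631 in limma and 0.216 with the replicate block. In that comparison 0 members were called, beside 0.044% of all probe sets. Only 1 member, GSTU18, had an unadjusted p below 0.05, beside 621 of all 15923 probe sets. The blocked fit called 0 members there as well, beside 0.0942% of all probe sets. Against npr1, GSTU18 was lower in cpr5npr1 by 0.61, with an adjusted p in limma of 0.0773, and of 0.0298 with the replicate block, where the call stood in 7 of 12 fits with 1 array left out. Across all 6 genotypes GSTU18 differed (moderated F test in limma, adjusted p 0.025), and 1 of the 8 members and 16.8% of all probe sets were called. Leaving out 1 array ended that call in 9 of 12 fits, with adjusted p-values up to 0.0682, but in 0 of 12 fits with the replicate block.

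**Figure D2:**
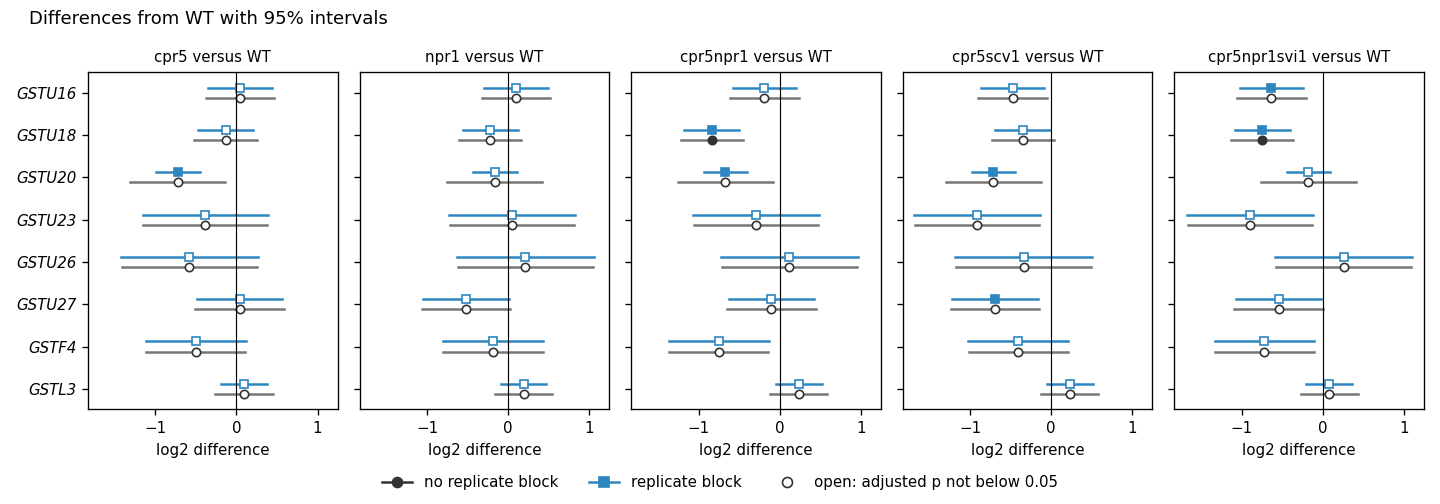
Difference of each genotype from WT on the log2 scale (horizontal axis) with its 95% interval for the 8 GST genes, in the fit without a replicate block (dark circle) and with it (blue square), where filled symbols have an adjusted p below 0.05. GSTU18 is filled in both fits in cpr5npr1 and cpr5npr1svi1, and the intervals of GSTU20 are shorter with the block.

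GSTU20 belongs to the tau class and is known in Arabidopsis as a partner of FIN219 (JAR1), a jasmonate-conjugating enzyme, in far-red light signalling. Its signal was 1745 and 2209 in WT, 1636 and 1884 in npr1, and 1462 and 2064 in cpr5npr1svi1. It was 1033 and 1371 in cpr5, 1022 and 1490.5 in cpr5npr1, and 990.1 and 1448 in cpr5scv1. No array of cpr5, cpr5npr1 or cpr5scv1 reached the lower array of WT or of npr1, whereas cpr5npr1svi1 overlapped WT. Both arrays lay below both WT arrays for 22.0% of all probe sets in cpr5, 20.2% in cpr5npr1 and 29.6% in cpr5scv1. Replicate 2 was above replicate 1 in 6 of 6 genotypes, by a ratio of 1.15 to 1.46 with a median of 1.37. GSTU20 was the only member for which all 6 differences had the same sign.

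Without the block, no difference of GSTU20 from WT passed the test. The log2 differences were -0.72 in cpr5 (SE 0.27, limma adjusted p 0.129), -0.67 in cpr5npr1 (0.167) and -0.71 in cpr5scv1 (0.0796). With the replicate block, which compares arrays of the same number, the standard error was 0.12 and GSTU20 fell in cpr5 (limma adjusted p 0.003), in cpr5npr1 (0.00467) and in cpr5scv1 (0.00133). These calls stood in 12 of 12, 11 of 12 and 12 of 12 blocked fits with 1 array left out, and the cpr5npr1 call was lost without the first cpr5npr1 array (0.058). The within-replicate differences were close to each other: -0.76 and -0.69 in cpr5, -0.77 and -0.57 in cpr5npr1, and -0.82 and -0.61 in cpr5scv1.

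In npr1 the log2 difference of GSTU20 from WT was -0.16, and the blocked 95% interval ran from -0.43 to 0.11. Against npr1, GSTU20 fell in cpr5npr1 only with the block, by 0.51 (limma adjusted p 0.0241, and 0.373 without the block). That call was lost without the first npr1 array or the first cpr5npr1 array, with adjusted p-values up to 0.193. In cpr5npr1svi1 the log2 difference from WT was -0.18 (blocked limma adjusted p 0.34), and against cpr5npr1 it was 0.49 with within-replicate differences of 0.52 and 0.47. That difference did not pass the test without the block (0.605) or with it (0.0509). Between cpr5scv1 and cpr5 the log2 difference of GSTU20 was 0.01, with a blocked 95% interval of -0.26 to 0.28.

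The leaf markers LHCB4.1 and RCA, summed, had lower means than WT in cpr5, cpr5npr1, cpr5scv1 and npr1, and a higher mean in cpr5npr1svi1. The summed signal of LHCB4.1 and RCA was 9474 and 11860 in WT, 9835 and 7577 in npr1, and 9375 and 12948 in cpr5npr1svi1. It was 7720.4 and 9400 in cpr5, 7623 and 9738 in cpr5npr1, and 8123 and 8776 in cpr5scv1. Replicate 2 was the brighter array of the sum in each genotype but npr1. The part of the leaf markers in the GSTU20 result was not tested.

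**Figure D3:**
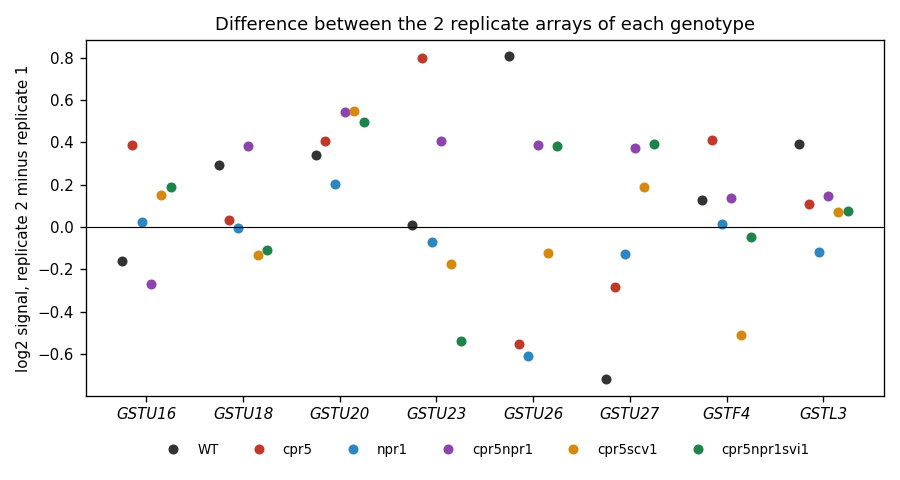
Difference between the 2 replicate arrays of each genotype (vertical axis, log2 signal of replicate 2 minus replicate 1) for the 8 GST genes, 1 point per genotype. For GSTU20 all 6 points lie above 0; for each other member they fall on both sides.

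GSTU16 was lowest in the genotypes with scv1 or svi1. Its signal was 68.1 and 75.6 in cpr5scv1 and 60.2 and 68.7 in cpr5npr1svi1. It was 105 and 94.4 in WT, 106 and 108 in npr1, 89.7 and 117 in cpr5 and 96.0 and 79.7 in cpr5npr1. The 4 arrays with scv1 or svi1 were the lowest of 12. Both arrays lay below both WT arrays for 29.6% of all probe sets in cpr5scv1 and for 21.2% in cpr5npr1svi1. The share of all probe sets with these 4 arrays lowest was not computed. The log2 difference from WT was -0.63 in cpr5npr1svi1 (95% interval -1.06 to -0.21; limma adjusted p 0.0568) and -0.47 in cpr5scv1 (-0.90 to -0.05; 0.102). With the replicate block the first was called (0.0282) and the second was not (0.0611), and the first was lost without the first WT array or without either cpr5npr1svi1 array, with adjusted p-values up to 0.16.

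Against their own parent genotypes, the log2 difference of GSTU16 was -0.52 for cpr5scv1 against cpr5 (95% interval -0.94 to -0.09) and -0.44 for cpr5npr1svi1 against cpr5npr1 (-0.87 to -0.02). Neither passed the test (limma adjusted p 0.304 and 0.451). The scv1 comparison had 0 of 8 members called beside 0.804% of all probe sets. It had 2 members at an unadjusted p below 0.05, beside 1827 of all 15923 probe sets. The svi1 comparison had 0 called beside 1.15% of all probe sets, with 1 member at an unadjusted p below 0.05, beside 1647 of all 15923. With the block 0 members were called in either, beside 3.8% and 3.97% of all probe sets.

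GSTU27, also a tau gene, had WT arrays that differed widely, 424 and 257. Its signal was 241 and 221 in npr1, 374 and 307 in cpr5 and 271 and 350.1 in cpr5npr1. It was 191 and 218 in cpr5scv1 and 198 and 259 in cpr5npr1svi1. Both cpr5scv1 arrays lay below every array of WT, cpr5, npr1 and cpr5npr1. Against WT alone, 29.6% of all probe sets had both cpr5scv1 arrays lower. The log2 difference of cpr5scv1 from WT was -0.69 (95% interval -1.24 to -0.15), with a limma adjusted p of 0.0687, and of 0.045 with the replicate block. The within-replicate differences were -1.15 and -0.24, and the blocked call was lost in 7 of 12 fits with 1 array left out, with adjusted p-values up to 0.38. Without the second WT array the limma fit without a block gave an adjusted p of 0.0113 there, and of 0.0315 in cpr5npr1svi1 against WT. Against cpr5, the log2 difference of cpr5scv1 was -0.73 and was not called (limma adjusted p 0.256, and 0.13 with the block).

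GSTU23 and GSTU26 are tau genes whose probe sets lay nearest above the filter, with mean log2 signals of 4.33 and 4.37 against a filter at 3.66. For GSTU23 the signal was 26.7 and 26.8 in WT, 28.3 and 27.0 in npr1 and 18.9 and 25.1 in cpr5npr1. It was 15.5 and 27.1 in cpr5, 15.1 and 13.3 in cpr5scv1 and 17.3 and 11.9 in cpr5npr1svi1. Both cpr5scv1 arrays and 1 cpr5npr1svi1 array lay below all arrays of the other 4 genotypes. The log2 differences from WT of -0.92 in cpr5scv1 (95% interval -1.68 to -0.15) and -0.90 in cpr5npr1svi1 (-1.66 to -0.13) did not pass the test, with limma adjusted p-values of 0.0839 and 0.128, and of 0.067 and 0.0963 with the block.

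For GSTU26 the signal was 16.3 and 28.5 in WT, 17.4 and 11.9 in cpr5 and 30.8 and 20.2 in npr1. It was 20.5 and 26.8 in cpr5npr1, 17.8 and 16.3 in cpr5scv1 and 22.6 and 29.5 in cpr5npr1svi1. Most of the other arrays lay between the WT arrays, and no comparison of GSTU26 passed the test with or without the block. Its largest difference from WT was -0.58 in cpr5, with a 95% interval from -1.42 to 0.25.

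GSTF4 is the phi-class member, and its WT arrays were the highest of 12. The signal was 31.4 and 34.3 in WT, 28.7 and 29.0 in npr1 and 29.6 and 20.7 in cpr5scv1. It was 20.1 and 26.7 in cpr5, 18.6 and 20.4 in cpr5npr1 and 20.3 and 19.6 in cpr5npr1svi1. As for GSTU18, the means of cpr5npr1 and cpr5npr1svi1 were the lowest, but the differences from WT of -0.75 (95% interval -1.36 to -0.14) and -0.72 (-1.33 to -0.11) did not pass the test, with limma adjusted p-values of 0.136 and 0.129. With quantile normalization the second was called (0.0492).

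GSTL3, the lambda-class member, had similar levels in all 6 genotypes. Its signal was 530.0 and 696 in WT, 722 and 667 in npr1, 624 and 672 in cpr5 and 679 and 752 in cpr5npr1. It was 695 and 731 in cpr5scv1 and 625 and 659 in cpr5npr1svi1. The genotype means spanned 0.24 on the log2 scale, while the WT arrays alone differed by 0.39. No comparison of GSTL3 was called, and its 95% intervals against WT in the 5 mutants lay between -0.27 and 0.59.

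Counted over the 8 members, log2 differences from WT lay below 0 for 5 in cpr5, for 4 in npr1, for 6 in cpr5npr1, 7 in cpr5scv1 and 6 in cpr5npr1svi1. The shares of all probe sets tested below 0 were, in the same order, 47.8%, 47.5%, 46.6%, 50.8% and 45.8%. The median member difference was -0.26 in cpr5, beside 0.02 over all probe sets tested. It was -0.24 beside 0.04 in cpr5npr1, -0.44 beside -0.01 in cpr5scv1 and -0.59 beside 0.04 in cpr5npr1svi1. In npr1 it was -0.06 beside 0.01. These comparisons share the same WT arrays. With all arrays set to a common median signal, which moved the median of all probe sets by -0.19 to -0.20 in the 4 genotypes with cpr5, the sign changed for GSTL3, GSTU16 and GSTU27 in cpr5, GSTU26 in cpr5npr1 and GSTL3 in cpr5npr1svi1, none of them called. Both arrays of a mutant lay below both WT arrays for 2 members in cpr5 (22.0% of all probe sets), 4 in cpr5npr1 (20.2%), 6 in cpr5scv1 (29.6%) and 4 in cpr5npr1svi1 (21.2%), and both lay above for 0 members in these 4 genotypes (26.7%, 25.9%, 29.8% and 28.5% of all probe sets, in the same order). In npr1 both arrays lay below WT for 3 members, GSTU18, GSTU27 and GSTF4 (14.0% of all probe sets), and above for 2, GSTU16 and GSTU23 (16.2%).

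In cpr5scv1, where 22.4% of all probe sets were called in either direction and 9.55% lower, 0 of the 8 members were called without the block. An unadjusted p below 0.05 was found for 4 of the 8 members and for 5633 of all 15923 probe sets. With the block 2 members, GSTU20 and GSTU27, were called there, beside 34.0% of all probe sets. The blocked fit called 1 member in cpr5 (17.4% of all probe sets), 2 in cpr5npr1 (16.2%) and 2 in cpr5npr1svi1 (21.4%), all lower. In cpr5npr1 against npr1 it called 2, GSTU18 and GSTU20 (10.4%). Without the block 0 were called (5.12%), with 1 at an unadjusted p below 0.05, beside 2774 of all 15923 probe sets. Over the 6 genotypes the blocked fit called 3, GSTU16, GSTU18 and GSTU20 (30.4%), and the call of GSTU16 (limma adjusted p 0.0326) stood in 5 of 12 fits with 1 array left out.

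The members did not vary as a single group. Over the 12 arrays the 28 pairs of members had Pearson correlations of log2 signal from -0.45 to 0.81 with a median of 0.15. GSTU18 and GSTF4 were the most alike pair, with r of 0.81 and Spearman's rho of 0.73 over 12 arrays that share their genotypes and replicate numbers. Among 8702 other probe sets of a single locus, those most like GSTU23 were AT1G18070 (r = 0.92), AT2G35605 (0.92), AT1G64510 (0.91), AT3G03920 (0.90) and AT4G38660 (0.90). Those most like GSTU26 were AT5G01200 (0.85), AT3G61550 (0.83), AT5G03370 (0.82), AT2G30890 (0.82) and AT3G52110 (0.82). Both lists hold the highest of 8702 correlations over only 12 arrays. How high the top values run for unrelated probe sets was not tested, so no link is drawn from them. GSTU23 and GSTU26 were used because their genotype means spanned the widest ranges of the 8, 0.96 and 0.85 on the log2 scale.

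Several tau genes are neighbours on chromosome 1 in the gene order of TAIR10.1. GSTU20, GSTU21, GSTU22 and GSTU23 follow one another with 0 protein-coding genes between neighbours, and so do GSTU25 and GSTU26. Of the first run GSTU20 and GSTU23 passed the filter, and of the second GSTU26 did. GSTU20 and GSTU23, at the ends of the first run, were both below WT in both arrays of cpr5scv1 and cpr5npr1, while in cpr5npr1svi1 the arrays of GSTU20 overlapped WT and those of GSTU23 did not. Whether probes of such neighbouring copies share targets was not tested.

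The 6 probe sets left out by the filter were GSTU28, GSTU22, ATGSTF13, GSTU25, GSTU21 and GSTU15. GSTU28 and GSTU22 lay nearest below it, each with a mean log2 signal of 3.41. GSTU28 ranged from 2.23 to 23.5 and was above the background signal of 7.76 in 9 of 12 arrays, and its WT arrays, 23.5 and 17.3, were the highest of 12. GSTU22 was above background in 11 arrays, ATGSTF13 in 8, GSTU21 in 4, GSTU25 in 3 and GSTU15 in 1. All 8 members were above background in 12 of 12 arrays. The filter on mean signal, at 12.6, lies above that background, so this was largely set by the choice of members. Between 76.9% and 79.5% of all probe sets were above background in each array. Of 53 loci in a list of the GST superfamily only these 14 had a named probe set, and the others are not analysed here.

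Genes that supply or recycle glutathione were mostly not analysed by name, with 3 of 16 tested, and 0 of the 3 were called in any comparison without the block. GR (AT3G54660) encodes a glutathione reductase, which returns oxidised glutathione to its reduced form. Its signal was 736 and 534 in WT, 669 and 506 in npr1, 497 and 393 in cpr5, 526 and 419 in cpr5npr1, 413 and 355 in cpr5scv1 and 497 and 340.3 in cpr5npr1svi1. Replicate 1 was the brighter array in each genotype, the opposite of GSTU20. With the replicate block GR fell in cpr5 (-0.50, limma adjusted p 0.0135, and 0.254 without the block), cpr5npr1 (-0.42, 0.032 and 0.369), cpr5scv1 (-0.71, 0.000995 and 0.0608) and cpr5npr1svi1 (-0.61, 0.00415 and 0.145). Leaving out 1 array ended the blocked call in 3, 6, 0 and 1 of 12 fits. Over the 6 genotypes GR was called only with the block (limma adjusted p 0.00406, and 0.241 without it). GR1 (AT3G24170), another glutathione reductase, and AT1G44790 were not called with the block either.

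Of 16 loci in a list of genes for detoxifying oxylipins and foreign compounds, 2 were tested. AT4G01870, for which the annotation gives only a locus, rose in each genotype with cpr5. Its signal was 36.3 and 33.5 in WT, 69.7 and 52.7 in npr1, 193 and 253 in cpr5 and 318 and 147 in cpr5npr1. It was 229 and 162 in cpr5scv1 and 314 and 123 in cpr5npr1svi1. The log2 rises over WT were 2.66 in cpr5 (limma adjusted p 0.00383), 2.63 in cpr5npr1 (0.00417), 2.47 in cpr5scv1 (0.00266) and 2.50 in cpr5npr1svi1 (0.00459), where 6.56%, 6.09%, 12.8% and 7.88% of all probe sets were called higher. Without the first cpr5npr1 array the second of these had an adjusted p of 0.0505. Against npr1, AT4G01870 rose in cpr5npr1 by 1.83 (0.0379; 4.32% called higher), a call lost in 7 of 12 fits without 1 array and without the intensity trend (0.0634).

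AT3G04000, the other tested locus of that list, rose in cpr5npr1 (1.13, limma adjusted p 0.0376) and in cpr5npr1svi1 (1.06, 0.0381). Its signal was 39.7 and 32.02 in WT, 106 and 57.4 in cpr5npr1 and 71.3 and 77.1 in cpr5npr1svi1. It was 44.1 and 56.8 in npr1, 49.8 and 45.4 in cpr5 and 46.7 and 60.8 in cpr5scv1, all above both WT arrays but not called. The first call was lost in 9 and the second in 6 of 12 fits without 1 array, with adjusted p-values up to 0.295 and 0.183. Both calls were also lost with quantile normalization (limma adjusted p 0.0698 and 0.0695), a common median signal (0.0595 and 0.0639), no filter (0.0538 and 0.056) and only the genotypes compared (0.193 and 0.0741), and the first also without the intensity trend (0.0509). The list of anthocyanin genes, whose pigments reach the vacuole with the help of a phi-class GST that is not among the 14, had 3 of 11 loci tested and 0 called without the block. DFR, dihydroflavonol reductase, was higher than WT in cpr5 by 0.99, with a limma adjusted p of 0.157, and of 0.0167 with the block, a call lost in 2 of 12 blocked fits without 1 array. In cpr5npr1svi1 it was higher by 0.88 (0.185, and 0.0233 with the block, lost in 3 of 12). AT4G14090 was lower in cpr5scv1 than in WT by 0.99 (0.225, and 0.03 with the block) and than in cpr5 by 1.83 (0.183, and 0.0118 with the block), each lost in 2 of 12 blocked fits. Over the 6 genotypes the block also called DFR (0.0409, lost in 9 of 12) and AT4G14090 (0.0157, lost in 2 of 12). None of the listed glutathione peroxidase-like, ABCC transporter, camalexin, TGA factor or tyrosine breakdown genes had a named probe set.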

How the data were processed

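Per the submitters' processing notes the deposited values are MAS5 signal, 1 value per probe set and array. The authors' scaling left a mean of 100.01 in every array once the lowest and highest 2% were set aside, and the sources used here do not give the version, scaling settings or detection calls. Nothing further was normalized. Control sets (64) and the dimmest 30% of the other 22746 probe sets by mean log2 signal were left out. Log2 signal, with no pseudocount, was fitted with limma 3.58.1 under R 4.3.3 (eBayes allowing for an intensity trend) as 6 genotype means over 12 arrays, with 6 residual and 4.65 prior degrees of freedom. All adjusted p-values are Benjamini-Hochberg values within a comparison over 15923 probe sets, called below 0.05. The fit without a block was tested on simulated data with independent noise and no replicate effect. The blocked fit was not tested in this way.

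Samples were grouped by source name and replicate numbers came from titles. Between all 15 pairs of genotypes the correlation of replicate differences lay between 0.175 and 0.363, the numbers were read as pairing, and a fit with the replicate as a block is given beside results whose call it changes. Other alternatives were quantile normalization, a common median signal, no filter, a pseudocount of 32, no intensity trend, only the genotypes compared, and each array left out, the last also within the blocked fit, which was added after seeing the data. With 2 arrays per genotype, their number limits the precision. Probe sets were named from the platform annotation (13513 with 1 gene, 503 with several, 8730 with none) and the TAIR10.1 gene table, and 13436 were linked to a locus. Background was the 95th percentile of 27 bacterial control sets. No promoter or protein sequences were used here, so the planned promoter motif search was not made.

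The named genes are every member, up to 4 called loci of each list per comparison, and the 5 probe sets most correlated with the 2 members of widest range. GR, DFR and AT4G14090, called only with the block, were added after their values were seen. The members and gene lists were chosen with earlier results of these data known.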

Additional observations from a re-analysis of the deposited data

Results flagged for a closer look

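Set against group means, GSTU16 lay on opposite sides in npr1 plants with and without cpr5. Both npr1 arrays (106 and 108) lay above the WT mean of 99.9, and the mean of cpr5npr1 (87.9 ± 11.5, SD, n = 2) lay below that of cpr5 (104 ± 19.6), with both cpr5npr1 arrays below the cpr5 mean. The arrays of cpr5npr1 and cpr5 overlapped, and within replicate 1 both differences were above 0, at 0.01 for npr1 against WT and 0.10 for cpr5npr1 against cpr5 on the log2 scale, so the opposite direction appears only within replicate 2, at 0.19 and -0.56. The difference itself, the interaction of cpr5 and npr1, was -0.33 on the log2 scale with a 95% interval of -0.93 to 0.27, and it was not called in limma, where its unadjusted p was 0.251.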

How the results depend on the processing

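The number of GST members called equalled the reported count, which was 0 or 1 in every comparison, in 178 of 208 recomputed counts. Most reported counts were 0, and an unchanged 0 says nothing about the stability of the calls that were made. No named gene's called difference changed sign. Relative to a common median signal, 4 members were called in cpr5scv1 against WT (GSTU16, GSTU20, GSTU23 and GSTU27; 26.6% of all probe sets), 2 in cpr5npr1svi1 (14.2%), 1 in cpr5npr1 against npr1 (GSTU18; 5.09%) and 2 over the 6 genotypes (19.6%). That scaling also turned the split of all calls against WT, from 2045 higher and 1520 lower to 1575 and 2664 in cpr5scv1, from 1255 and 649 to 907 and 1354 in cpr5npr1svi1, from 1044 and 343 to 772 and 914 in cpr5, and from 969 and 327 to 743 and 862 in cpr5npr1. Quantile normalization gave 3 in cpr5npr1svi1 (GSTF4, GSTU16 and GSTU18; 10.8%) and 2 over the 6 genotypes (16.7%). Fitting only the genotypes compared gave 0 in cpr5npr1 (2.21%) and 0 in cpr5npr1svi1 (4.17%) against WT, and no intensity trend gave 0 over the 6 genotypes (13.5%). The replicate block gave 1 in cpr5, 2 in cpr5npr1, 2 in cpr5scv1 and 2 in cpr5npr1svi1 against WT, 2 in cpr5npr1 against npr1 and 3 over the 6 genotypes, and it raised the probe sets called in cpr5 against WT from 1387 to 2773. It changed no other call of a member. Leaving out 1 array in turn gave 0 to 1 in cpr5npr1, 0 to 1 in cpr5scv1 and 0 to 1 in cpr5npr1svi1 against WT, and 0 to 2 over the 6 genotypes. The cause of these changes was not tested. Fits to fewer arrays have fewer degrees of freedom, and leaving out an array of a compared genotype also moved the estimate. For GSTU18 in cpr5npr1 against WT it was -0.69 without the second WT array and -0.64 without the first cpr5npr1 array. A pseudocount of 32 and no filter changed none of these counts. Members near the filter, GSTU23 and GSTU26, had signals of 11.9 to 30.8 against a background of 7.76.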
